A study of Homo sapiens with 4 samples.

Results

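Cystatins are small proteins that plug the active site of papain-like cysteine proteases, the cathepsins of the lysosome among them. The 7 genes described here are CST1, CST2, CST3, CST4, CST6, CSTA and CSTB, found by symbol among the 23143 gene symbols of the deposited table. They were chosen because CST1 was lower after doxycycline in these same libraries. Their differences between the groups are therefore given as description, without a test.

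RNA came from A549, an established human lung adenocarcinoma line, in a version in which doxycycline raises GATA4, a DNA-binding zinc finger protein that directs heart and gut development. The 2 noDOX libraries are labelled as having GATA4 at its normal level, and the design text names a vehicle for them. The 2 DOX libraries are labelled as overexpressing GATA4. The sources used here do not give the dose, the length of treatment or whether the line is a single clone. A doxycycline-treated line without the inducible GATA4 was not analysed here, so doxycycline itself and GATA4 cannot be told apart.

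The level of GATA4 was 12.2 and 14.5 FPKM without and 75.0 and 48.0 FPKM with doxycycline, where FPKM corrects fragment numbers for the length of the transcript and the size of the library. The epithelial markers KRT8 and KRT18 were at 2339 to 5245 and 1728 to 2917 FPKM, with overlapping groups for both, as for CDH1 (8.73 to 25.8 FPKM) and KRT19 (7.49 to 87.0 FPKM). The fifth epithelial marker, EPCAM, was at 8.27 and 13.7 FPKM without and 3.83 and 3.08 FPKM with doxycycline, lower in both DOX libraries (limma, log2 difference -1.4, unadjusted p = 0.00605, adjusted p = 0.494), and its part in the results was not tested. Of 4 blood markers CD14 was at 1.94 to 15.9 FPKM and HBB, PTPRC and CD3E reached at most 0.341, 0.00516 and 0 FPKM. Of 3 fibroblast markers COL1A1 was at 3.76 and 8.46 FPKM without and 1.76 and 2.88 FPKM with doxycycline. It was lower in both DOX libraries (limma, log2 difference -1.04, unadjusted p = 0.0561, adjusted p = 0.814). COL1A2 and PDGFRB were at most at 0.0176 and 0.0208 FPKM, and the endothelial markers PECAM1, VWF and CDH5 summed to 0.0942 to 0.119 FPKM. FPKM summed to 975728 to 1381822 per library, of which 34.8 to 41.9% was small RNA genes. Total read numbers are not given. The spacing of low values showed that 1 fragment was worth 0.868, 0.907 and 1.38 times as much FPKM in noDOX library 2, DOX library 1 and DOX library 2 as in noDOX library 1, so DOX library 2 had the coarsest values.

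Cystatins fall into families by where they act. The stefins CSTA (stefin A) and CSTB (stefin B) lack a signal peptide and work inside the cell. CST3, or cystatin C, is secreted by most cell types, and CST6, or cystatin E/M, is a secreted inhibitor best known from skin that also blocks legumain. CST1, CST2 and CST4 encode the salivary cystatins SN, SA and S, which are near copies of each other, and CST1 is also known from airway epithelium in allergic inflammation and from several carcinomas. In the reference annotation CST3, CST4, CST1 and CST2 stand next to each other in this order on chromosome 20, within a run of 10 protein-coding cystatin genes. CST6, CSTA and CSTB are on chromosomes 11, 3 and 21.

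Because the salivary cystatins are so alike, their sequences bear on how far their values are separate measurements. Sequences were read by transcript name from GENCODE release 29. The coding sequences of CST1, CST2 and CST4 were each 426 bases long and aligned without gaps. CST1 differed from CST2 at 37 bases and from CST4 at 31, so 91.3% and 92.7% of bases were identical. CST3 was 69.8% identical to CST1 over the aligned columns, and the stefins CSTA and CSTB were 57.9% identical to each other. The stretch with the fewest differences, bases 260 to 349 of the coding sequence counted from the start codon, is shown, and capitals mark bases that differ from CST1.
CST1: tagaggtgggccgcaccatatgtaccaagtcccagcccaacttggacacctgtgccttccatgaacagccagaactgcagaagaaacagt
CST2: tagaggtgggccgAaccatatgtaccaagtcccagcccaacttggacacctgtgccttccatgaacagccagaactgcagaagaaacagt
CST4: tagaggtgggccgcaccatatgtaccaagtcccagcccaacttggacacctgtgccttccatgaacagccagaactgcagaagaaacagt

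Over these 90 bases CST4 had 0 differences from CST1 and CST2 had 1. A fragment lying wholly inside the stretch cannot separate CST1 from CST4. The longest run without a difference was 152 bases between CST1 and CST4 and 87 bases between CST1 and CST2. Of all 50-base windows along the whole transcript, 27.3% of those of CST1 also occurred in a transcript of another gene, against 30.2% for CST4 and 8.3% for CST2. The windows of CST1 recurred in CST4 (192 of 711), CST2 (38) and CST5 (2). For CST3, CST6, CSTA and CSTB no window of the transcript examined recurred in another gene (0 of 824, 710, 702 and 2115). The sources used here give neither the read length nor the handling of shared reads, so reads of CST1 and CST4 may in part stand for each other.

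The levels of the 7 genes spanned 3 tiers in A549 cells. CST3 and CSTB stood at 171 to 542 FPKM in every library, CST1 and CST2 at 1.22 to 37.5 FPKM, and CST4 and CSTA below 1 FPKM. CST6 was listed at 0 in all 4 libraries. In such a table a 0 may mean that estimation failed or that no transcript was seen. Within the noDOX libraries the order was CST3, CSTB, CST1, CST2 and then CST4 and CSTA. The last pair changed places between noDOX libraries 1 and 2, so their levels did not differ beyond their spread. The FPKM of CST3 was above that of CSTB in each library, by 1.48 to 1.83 times, although the noDOX ranges of these genes overlapped (286 to 436 and 171 to 294 FPKM).

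**Figure D1:**
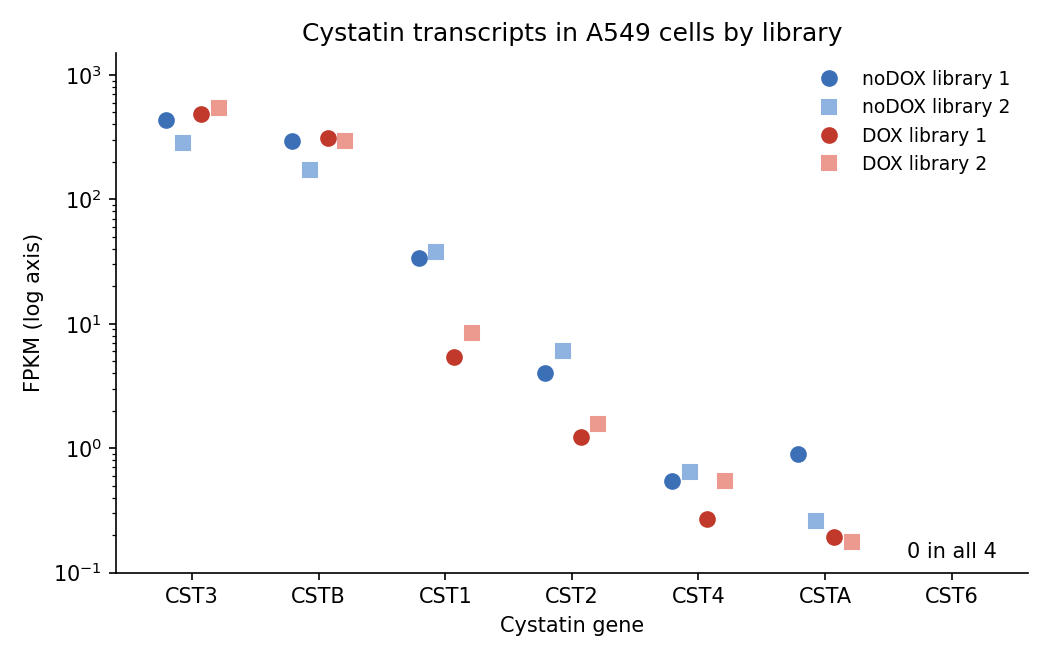
FPKM of each cystatin gene on a log axis, 1 symbol per library (blue noDOX, red DOX). CST1 and CST2 lie lower in both DOX libraries than in both noDOX libraries, CST3 and CSTB lie at 171 to 542 FPKM throughout, and CST6 is listed at 0.

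CST1, the salivary cystatin SN, had 33.8 and 37.5 FPKM in noDOX libraries 1 and 2 against 5.44 and 8.46 FPKM in DOX libraries 1 and 2. Both DOX libraries were low, and even the closest noDOX and DOX values were 3.99-fold apart. The group means were 35.6 ± 2.65 and 6.95 ± 2.14 FPKM (SD, n = 2 each), 5.13-fold lower with doxycycline. On the log2(FPKM + 1) scale, which understates changes of low genes, CST1 differed by -2.23 (SE 0.26). In bulk RNA, fewer cells with the transcript and less transcript per cell cannot be told apart. Of 12112 genes outside the small RNA classes with a mean of at least 1 FPKM, 17 had a lower log2 difference than CST1. This rank repeats the choice of CST1 and is no independent measure.

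CST2, the salivary cystatin SA, had 4.05 and 6.09 FPKM without and 1.22 and 1.56 FPKM with doxycycline. Its groups did not overlap either, and the closest values were 2.59-fold apart. CST2 averaged 5.07 ± 1.44 and 1.39 ± 0.239 FPKM (SD, n = 2 each), a log2 difference of -1.33 (SE 0.25). CST2 amounted to 0.12 and 0.162 of the FPKM of CST1 in the noDOX libraries and to 0.225 and 0.185 in the DOX libraries. The ratio was thus larger in both DOX libraries. There CST2 rests on 25 and 21 fragments by the inference given below, so counting error limits the ratio. With a pseudocount of 5 in place of 1 the log2 difference of CST2 was -0.65.

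CST4, the salivary cystatin S, was at 0.547 and 0.647 FPKM without and at 0.27 and 0.548 FPKM with doxycycline. DOX library 2 lay between the noDOX libraries and barely above the lower of them, so the groups overlapped. The log2 difference was -0.19. Relative to CST1, CST4 was at 0.0162 and 0.0172 in the noDOX libraries and at 0.0498 and 0.0648 in the DOX libraries. The DOX ratios rest on 6 and 8 inferred fragments of CST4, and reads of CST1 and CST4 may in part stand for each other.

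The low values of these genes came in steps that correspond to whole fragments. After division by what 1 fragment was worth in each library, CST4 was within 0.0023 of 11, 15, 6 and 8 fragments in noDOX libraries 1 and 2 and DOX libraries 1 and 2. CST2 was within 0.029 of 75, 130, 25 and 21 fragments. These are the smallest whole numbers that the values allow, and they are an inference from the spacing, and not counts from the authors. The 95% exact Poisson interval, which covers counting error only, was 5.49 to 19.7 fragments for CST4 in noDOX library 1 and 2.2 to 13.1 in DOX library 1. For CST2 the intervals were 59 to 94 and 109 to 154 fragments in noDOX libraries 1 and 2. In DOX libraries 1 and 2 they were 16.2 to 36.9 and 13 to 32.1, without adjustment for the differing worth of a fragment. The intervals describe single libraries and are no test between the groups, since the members were chosen on this comparison. CST1 gave no such whole-number solution within the search limit of 30 fragments for the lowest library, a limit below the CST1 estimates that follow. At the fragment values of CST2 and CST4, whose transcripts are of like length, it corresponds to 626 to 679 and 801 to 870 fragments in the noDOX libraries and 111 to 121 and 114 to 123 in the DOX libraries. These fragment numbers were not adjusted for the differing worth of a fragment. Relative to noDOX library 1 that worth was 0.907 in DOX library 1 and 1.38 in DOX library 2. The DOX libraries are thus nearer in fragments than in FPKM (5.44 and 8.46), and this nearness is not a closer agreement of levels.

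CST3, cystatin C, the most abundant secreted cystatin here, had 436 and 286 FPKM without and 486 and 542 FPKM with doxycycline. Both DOX values were higher, and noDOX library 2 was the lowest of the 4. CST3 averaged 361 ± 106 and 514 ± 39.9 FPKM (SD, n = 2 each), with a log2 difference of 0.54 (SE 0.39). The difference depended on noDOX library 2, since it was 0.24 without that library and 0.84 without noDOX library 1.

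CST6, cystatin E/M, also a secreted member, was listed at 0 throughout and gives no difference. The secreted cystatins that are not members were listed at 0 or at low values as well. CST8, CST9L, CST11 and CSTL1, genes of the same chromosome 20 run, were listed at 0 in all 4 libraries. CST5 (cystatin D), CST7 (cystatin F) and CST9 had values above 0, with CST7 highest at 0.182 FPKM in noDOX library 1. None of these 7 genes had a mean of at least 1 FPKM, so 0 were tested.

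CSTB, stefin B, which is found in the cytosol and nucleus of most cells, was at 294 and 171 FPKM without and at 313 and 296 FPKM with doxycycline. Both DOX values were above both noDOX values, but DOX library 2 exceeded noDOX library 1 by only 1.01 times. CSTB averaged 232 ± 87.3 and 305 ± 11.9 FPKM (SD, n = 2 each), with a log2 difference of 0.44 (SE 0.4). Without noDOX library 2 the difference was 0.05, and without noDOX library 1 it was 0.83.

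CSTA, stefin A, a stefin of skin and other stratified epithelia, had 0.891 and 0.258 FPKM without and 0.192 and 0.175 FPKM with doxycycline. noDOX library 1 was high, and the others lay close together. The values correspond to 21, 7, 5 and 3 fragments, each within 0.0011 of a whole number, not adjusted for the differing worth of a fragment. The 95% Poisson intervals were 13 to 32.1 and 2.81 to 14.4 fragments in noDOX libraries 1 and 2. In DOX libraries 1 and 2 they were 1.62 to 11.7 and 0.619 to 8.77. These intervals cover counting error only and are no test between the groups. Among 9 genes of the cornified envelope, the skin structure in which stefin A is a component, 5 were listed at 0 in all libraries (IVL, LOR, SPRR1A, SPRR1B and SPRR3) and 2 had a mean of at least 1 FPKM. Of these, EVPL (envoplakin) was at 11, 15.1, 20.9 and 15.3 FPKM and PPL (periplakin) at 1.61, 4.71, 2.3 and 1.35 FPKM, and neither passed (limma, adjusted p = 0.986 and 0.999).

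Altogether 4 of the 7 members had a mean of at least 1 FPKM, namely CST1, CST2, CST3 and CSTB. Among them 2 had both DOX libraries below and 2 had both above the noDOX libraries. Over all 12504 genes with such a mean, the DOX pair lay wholly below the noDOX pair in 17.3% and wholly above it in 14.7%. Since the members were chosen on this comparison, nothing is read from their count. The median log2 difference over the 12504 genes was -0.04.

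The family total was carried by CST3 and CSTB, which together made up 94.9 and 91.1% of summed cystatin FPKM in the noDOX libraries and 99.1 and 98.7% in the DOX libraries. CST1 contributed 4.39 and 7.48% without and 0.674 and 0.995% with doxycycline. These shares are free of any scaling of whole libraries. The FPKM of CST3 was 12.9 and 7.63 times that of CST1 in the noDOX libraries and 89.4 and 64.1 times in the DOX libraries. The sum of all 7 members was 769 and 501 FPKM without and 806 and 850 FPKM with doxycycline, so the total was higher in both DOX libraries although CST1 and CST2 were lower. noDOX library 1 was close to DOX library 1, so the size of the difference rests largely on noDOX library 2. Unlike the shares, these sums depend on the scaling of whole libraries.

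The proteases that cystatins inhibit were compared from a list of the 11 human papain-like cathepsins and legumain (LGMN). Of these 12 genes 11 were tested and 0 passed in either direction (limma, adjusted p = 0.947 to 1.0), 0 had an unadjusted p under 0.05, and their median log2 difference was -0.02. Over all genes tested 0.088% passed in either direction, so a count of 0 among 11 is close to the background. GATA4, with a log2 difference of 2.09 (SE 0.3), was itself not among the 11 of 12504 genes that passed. A count of 0 passing therefore does not show that a list was unchanged. CTSL1, the gene of cathepsin L, was at 379 and 278 FPKM without and 279 and 379 FPKM with doxycycline, so the groups covered the same range. CTSZ, cathepsin Z, was at 223, 158, 189 and 221 FPKM, and LGMN, an asparaginyl protease that cystatins inhibit through a separate site, was at 72.4, 73.5, 73.5 and 70.0 FPKM. LGMN varied least among the abundant members.

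CTSB (cathepsin B), CTSC (dipeptidyl peptidase I) and CTSH (cathepsin H) had both DOX libraries below both noDOX libraries, and CTSL2 (cathepsin V) and CTSO had both above. These 3 and 2 of 11 are near the shares over all tested genes, 17.3% and 14.7%. CTSB was at 95 and 145 FPKM without and 89.4 and 87.5 FPKM with doxycycline, and CTSH was at 22.1 and 24.4 and at 19.0 and 15.8 FPKM. CTSH had the smallest p of the list (limma, unadjusted p = 0.122, adjusted p = 0.947). CTSF, CTSK and CTSS overlapped between the groups, and CTSW, at most 0.189 FPKM, was not tested.

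Summed FPKM of the cystatins divided by that of these 12 proteases was 0.878 and 0.66 in the noDOX libraries and 1.1 and 1.0 in the DOX libraries. On average it was 0.769 ± 0.154 without and 1.05 ± 0.0698 with doxycycline (SD, n = 2 each), a log2 ratio of 0.45. The groups did not overlap, and CST3 and CSTB set the numerator. The log2 ratio was 0.26 without noDOX library 2 and 0.68 without noDOX library 1. It compares transcripts only and says nothing of protein or of inhibitor activity.

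**Figure D2:**
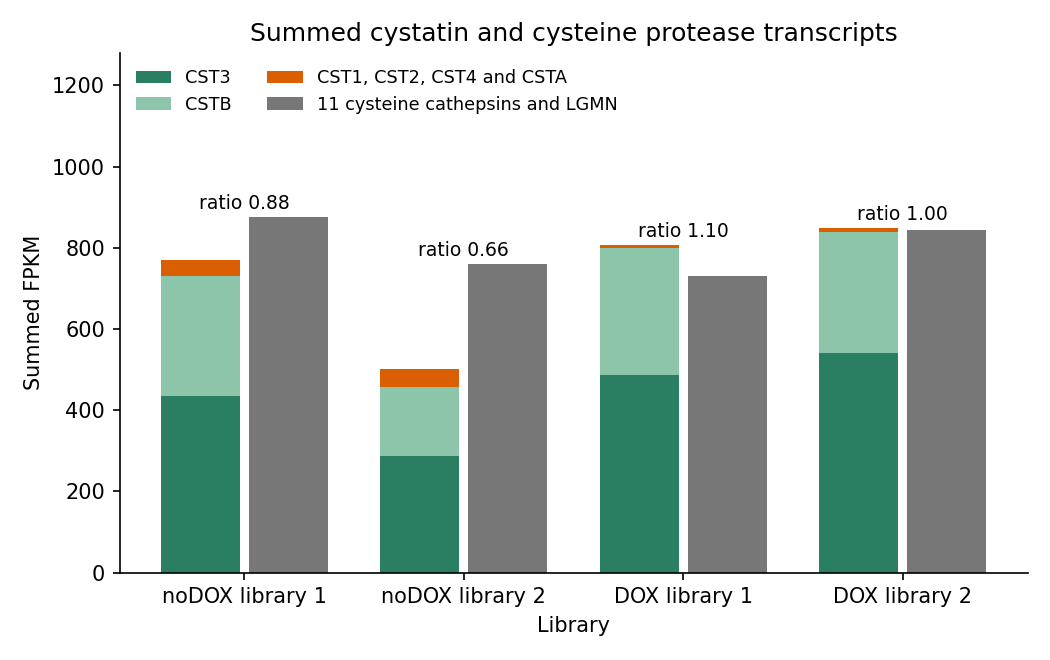
Stacked bars give summed FPKM of the cystatins in each library, split into CST3, CSTB and the low members, and grey bars give summed FPKM of the 11 cysteine cathepsins and LGMN. The ratio above each pair is 0.88 and 0.66 in the noDOX libraries and 1.1 and 1.0 in the DOX libraries.

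Cathepsins of other enzyme classes, which cystatins do not inhibit, were a further comparison. Of 5 genes 3 were tested and 0 passed (limma, adjusted p = 0.999 for each; 0 with an unadjusted p under 0.05). The aspartic protease gene CTSD was at 178, 186, 183 and 193 FPKM, with overlapping groups. CTSE, an aspartic protease of stomach and other epithelia, was listed at 0 and at 0.0366 FPKM without doxycycline, against 1.23 and 0.882 FPKM with it. It was too low for the main test and missed the threshold when low genes were kept (limma, adjusted p = 0.35). Of 11 lysosome membrane and sorting genes 0 passed (adjusted p = 0.999 for each; 0 with an unadjusted p under 0.05), with a median log2 difference of 0.02. The most abundant of them, PSAP (prosaposin), was at 561 and 669 FPKM without and 967 and 751 FPKM with doxycycline.

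Among 4 plasma proteins built with cystatin domains, AHSG (fetuin-A) alone was tested. It was at 1.97 and 2.56 FPKM without and 0.123 and 0.718 FPKM with doxycycline, and both DOX values were low. It did not pass (limma, unadjusted p = 0.0132, adjusted p = 0.567). FETUB (fetuin-B) was at 0.0743 and 0.145 FPKM and was listed at 0 in both DOX libraries, while KNG1 (kininogen) and HRG reached at most 0.251 and 0.0131 FPKM.

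Inhibitors of other proteases were taken from a list of 22 genes, serine protease inhibitors and the calpain inhibitor calpastatin. Of 14 tested, 10 had lower and 4 higher mean log2 values with doxycycline, against 56.1% lower over all genes tested. Both DOX libraries were below in 7 and above in 1 of the 14, where 17.3% and 14.7% of all tested genes were, and the median log2 difference was -0.3. No gene passed (0 of 14; limma, adjusted p = 0.566 to 0.999), and 4 had an unadjusted p under 0.05, where 6.34% of all tested genes did. SLPI, the secretory leukocyte protease inhibitor, was at 26.8 and 21.5 FPKM without and 10.8 and 13.4 FPKM with doxycycline (adjusted p = 0.566, limma). PI3 (elafin) was at 3.25, 4.85, 1.71 and 0.417 FPKM, SERPINB8 at 2.31, 2.28, 0.257 and 1.06 FPKM, and SERPINA3 (antichymotrypsin) at 7.36, 9.65, 3.41 and 5.57 FPKM. In each of these 4 genes the DOX libraries were the low ones, but the 4 were named for having the smallest p of the list. The 1 tested gene with both DOX libraries above was SERPINE2, at 9.96, 18.5, 37.7 and 20.3 FPKM.

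**Figure D3:**
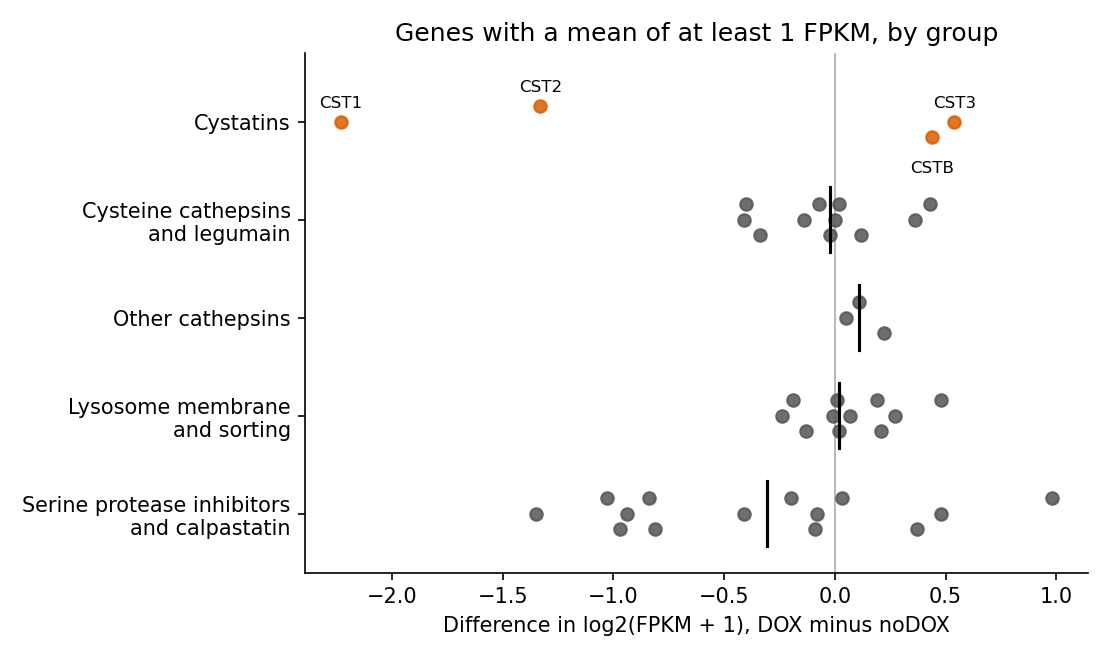
Each point is 1 tested gene, placed by its difference in log2(FPKM + 1), DOX minus noDOX, and vertical bars are medians of the comparison lists. CST1 and CST2 lie at -2.23 and -1.33 and CST3 and CSTB at 0.54 and 0.44, while the cysteine cathepsins and LGMN have a median of -0.02.

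Genes flanking the cystatin run on chromosome 20 were examined, 3 protein-coding genes on each side. NXT1, an RNA export cofactor, was at 34.4, 22.0, 16.3 and 22.9 FPKM, with overlapping groups. GZF1, a zinc finger protein, was at 5.82, 4.88, 4.57 and 4.75 FPKM, and NAPB, a vesicle fusion factor, at 6.82, 7.13, 7.45 and 7.07 FPKM. GZF1 had both DOX libraries below both noDOX libraries, as had 17.3% of all tested genes, and NAPB overlapped. None of these 3 passed (limma, adjusted p = 0.986, 0.999 and 0.999; 0 with an unadjusted p under 0.05). On the other side GGTLC1, SYNDIG1 and CST7 stayed at or below 0.503 FPKM and were not tested. GGTLC1 was at 0.343 and 0.387 FPKM without and 0.187 and 0.331 FPKM with doxycycline. SYNDIG1 was at 0.13 and 0.503 FPKM without and 0.0859 and 0.0815 FPKM with it. In GGTLC1 and SYNDIG1 both DOX libraries were thus lower, at these low values, and CST7 overlapped. CST3, which lies in the run beside CST4, CST1 and CST2, had higher DOX values. Its log2 difference of 0.54 (SE 0.39) was 0.24 without noDOX library 2. The direction in CST3 differed from that in CST1 and CST2, and a change shared by the region was not tested.

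The genes whose 4 values were most like those of CST1 were sought among the 12112 genes outside the small RNA classes. Likeness was the root mean square distance between log2(FPKM + 1) values, each gene centred on its own mean over the 4 libraries, so it rests on 4 points. The nearest was HLA-DMB, a chaperone subunit for class II antigen presentation, at a distance of 0.047, with 25.9 and 29.6 FPKM without and 3.92 and 5.86 FPKM with doxycycline. ADH6, an alcohol dehydrogenase, followed at 0.077, with 10.5, 12.4, 1.05 and 2.48 FPKM. AGTR1, the angiotensin II receptor, C15orf48, C12orf39 and CA9, a carbonic anhydrase, were at 0.086, 0.123, 0.175 and 0.233. The pseudocount of 1 compresses changes of low genes, so likeness on this scale is not likeness in fold change. Group means were 5.68 (HLA-DMB) to 23.4 times (CA9) lower with doxycycline in the 6 genes, against 5.13 in CST1 and 3.64 in CST2. CST2 lay farther away, at 0.484, and its smaller log2 difference enters that distance. CST3 and CSTB were at 1.416 and 1.394. In all 6 nearest genes and in CST1, DOX library 1 had the lowest value, which the choice by likeness largely fixes in advance.

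**Figure D4:**
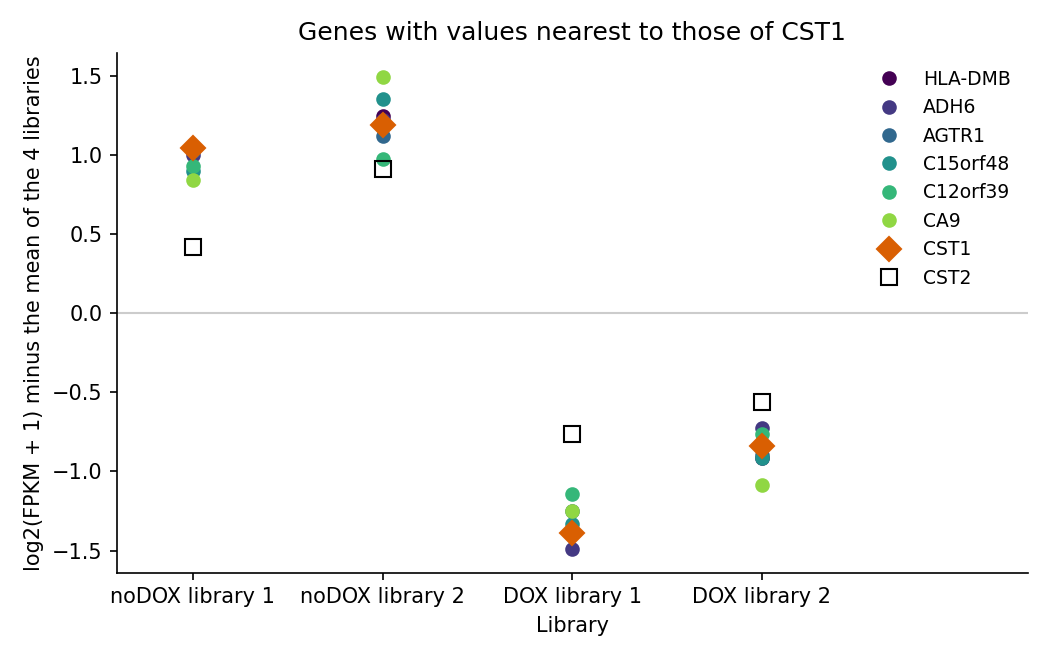
Points are log2(FPKM + 1) of each gene minus its mean over the 4 libraries, for CST1 (diamonds), CST2 (open squares) and the 6 nearest genes. The 6 genes lie close to CST1 in each library because they were chosen for that, and CST2 shows the same direction with smaller differences.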

How the data were processed

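Polyadenylated RNA was sequenced in 2 noDOX and 2 DOX libraries. The authors deposited FPKM for 23143 symbols, 1 column per library. Per the submitters' processing notes, TopHat2 2.0.10, Bowtie, Cufflinks 2.2.1, Cuffdiff and the hg19 genome were used, with roles, annotation and strand setting not given in the sources used here.

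Values were tested as log2(FPKM + 1), pseudocount 1, with limma 3.58.1 in R 4.3.3 (trended moderation, two-sided p, Benjamini-Hochberg threshold 0.05, 2 residual degrees of freedom) over the 12504 genes averaging 1 FPKM or more. The test was run on simulated data whose noise was independent for each gene and library. Replicate deviations in the real data correlated at -0.758 across genes, so the simulation does not show how the test performs here. Nothing in the labels says that replicates came from separate cultures, so p-values measure only the spread between these samples, possibly technical.

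Members and lists were chosen with earlier results of these data known. The genes given were all members, every or the 4 smallest-p genes of each list, 6 genes nearest to CST1 and 3 flanking genes on each side. Further genes of the lists were given after their values were seen. The older symbols CTSL1 and CTSL2 stand for cathepsins L and V.

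Fragment numbers were sought up to 30 for the lowest library. Transcripts came from GENCODE release 29, on a later build than hg19, so no genome coordinates are printed. Alternatives covered pseudocount, filter, scaling, moderation, small RNA genes, a block and each library left out. A further sequence stretch is not reported here.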

Additional observations from a re-analysis of the deposited data

How the results depend on the processing

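Over 16 alternatives, the log2 difference of CST1 ran from -2.51 to -1.78, the latter with a pseudocount of 5, and from -2.51 to -1.95 with 1 library left out. A difference of means can move in only 9 of the 16, those of pseudocount, scaling or a library left out. In those 9, CST2, CST3 and CSTB kept their direction, from -1.77 to -0.65, 0.24 to 0.84 and 0.05 to 0.83. CST4 and CSTA ran from -0.5 to -0.04 and from -1.07 to -0.09. Scaling to the sum outside the small RNA classes moved the median of all genes outside those classes from -0.041 to 0.079. The cysteine cathepsin median of -0.02 was 0.11 under that scaling and 0.07 after quantile normalization, and -0.1 to 0.01 with 1 library left out, so its sign is not settled, and 0 of its members passed in any alternative. The log2 cystatin to cathepsin ratio ran from 0.26 to 0.68 with 1 library left out.

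The number of genes passing, 11, was 7 with a pseudocount of 5, 1 without a filter, 0 with every library at 1 FPKM or more (742 had an unadjusted p under 0.05, limma), 1 without small RNA genes, and 41 to 63 with 1 library left out. The labels tie the replicate numbers to no shared source, and deviations of equal-numbered libraries correlated at -0.758 across genes. A replicate block gave 65 genes. A crossed replicate block, added after the data were seen, gave 7. With it 2617 genes had an unadjusted p under 0.05, against 793 in the main fit and 601 with the replicate block (limma). The cause of these shifts was not tested. Low depth limits CST4 and CSTA, at 3 to 21 fragments per library.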
